A study of Mus musculus with 4 samples.

Results

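GATA2 summits were examined at 10 mouse genes that carry the WNT signal from the secreting cell to the nucleus: Porcn, Znrf3, Rnf43, Lgr5, Gsk3b, Axin2, Ctnnb1, Tcf7, Tcf7l2 and Lef1. They are 10 of 21631 protein-coding RefSeq genes on the chromosomes of the peak list (1 to 19 and X). The genes were chosen by the positions and fold enrichments of their summits in this same list, so their values are described here without a test. For each gene, every summit inside the gene body or within 100 kb of it was taken. This gave 9 of the 995 summits in the list, in 8 intervals.

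The summits come from CUT&Tag, in which an antibody guides a transposase to cut and tag the surrounding chromatin. The cells were germ cells from the ovaries of fetuses at E13.5 (E for embryonic day), sired by BVSC males on C57BL/6J females. BVSC denotes the Blimp1-mVenus and Stella-ECFP reporters, and all groups carried them. The ovaries had been digested with trypsin, and only reporter-positive cells were used. A rabbit anti-GATA2 antibody was used in 2 libraries, and 2 input libraries had no antibody. The list pools both GATA2 libraries, and values per library or for the inputs were not analysed here. A peak list gives no expression, so the cell type could not be checked by marker levels, and summits near marker genes are given as counts only. Within 100 kb, 3 of 8 germ cell markers had a summit (Dppa3, Prdm1 and Pou5f1), as did 1 of 6 somatic gonad markers (Amhr2), 0 of 4 blood markers and 0 of 4 endothelial markers, beside 14.9% of all protein-coding genes. Counts this small do not tell one cell type from another. Prdm1 and Dppa3 also name the reporter transgenes.

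WNT proteins are lipid-modified in the secreting cell and bind Frizzled and LRP receptors on the receiving cell. Without a signal, a complex built on AXIN and APC lets GSK3 mark beta-catenin for destruction. With a signal, beta-catenin accumulates and joins TCF/LEF proteins at target genes. In the fetal ovary the pathway is known for its part in female development, through RSPO1 and WNT4 of the somatic cells. GATA2 is a zinc finger transcription factor that binds GATA-containing DNA.

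The 10 genes cover secretion, receptor turnover, beta-catenin turnover, beta-catenin itself and the TCF/LEF factors, and include no ligand or Frizzled gene. Each step they cover, except beta-catenin itself, had a summit at 1 gene or more. Of the 10 genes, 8 had a summit by the rule, and Ctnnb1 and Tcf7 had none. Over all protein-coding genes 14.9% had one. A summit with a q of at most 0.05 (a −log10 q of at least 1.30) was present at 5 of the 10 genes (Porcn, Znrf3, Rnf43, Gsk3b and Tcf7l2), against 10.2% of all genes. The genes were the nearest protein-coding gene to a summit in 7 cases, against 3.82% of all genes, the exception being Rnf43. The summit lay inside the gene in 4 cases (Znrf3, Lgr5, Tcf7l2 and Lef1), against 2.08% of all genes. Because the choice of genes used these summits, nothing is read from the differences between those shares.

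**Figure D1:**
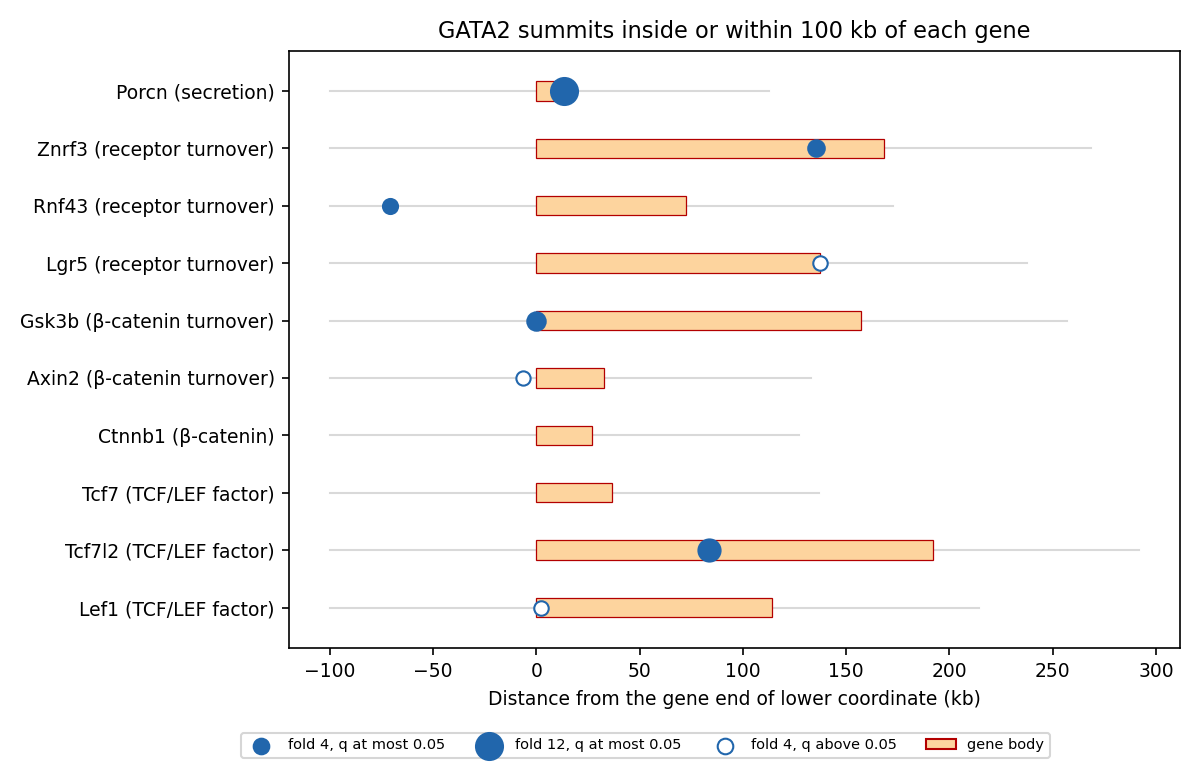
Summits (circles, area proportional to fold enrichment) drawn against each gene body (bars), with the x axis in kb from the gene end of lower coordinate and grey lines marking the 100 kb windows. Ctnnb1 and Tcf7 have no circle, the Rnf43 circle lies 71.0 kb outside its gene, and the 2 Porcn summits overlap at this scale.

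The highest fold of the 9 summits was found at the secretion step. Porcn (gene ID 53627, chromosome X, 8193846 to 8206548) encodes the acyltransferase of the endoplasmic reticulum that attaches the lipid to WNT proteins. It had 2 summits in 1 interval of 960 bp (chromosome X, 8206592 to 8207551). The stronger one, at 8207082, had a fold of 12.0, a −log10 q of 17.2 and 31 fragments (95% Poisson interval 21.1 to 44.0). The weaker one, at 8206692, had a fold of 4.86, a −log10 q of 3.37 and 11 fragments (5.49 to 19.7). They lay 534 and 144 bp outside the gene. Only 40 of the 945 intervals in the list held more than 1 summit, and 3.52% of summits lay in an interval at least as wide. The lncRNA gene Gm33135, which runs from 8205707 to 8217912 on the plus strand, covers both summits, and 1 of its RefSeq starts lies 586 bp before the stronger one. In the order of fold the stronger summit ranked 11 of 995. The summits next to it in that order were nearest to Cs, which encodes citrate synthase (12.3-fold, 32 fragments), and Dnah2, a dynein heavy chain gene (12.0-fold, 31 fragments), above it or level with it. Below it came Psat1, a gene of serine synthesis (11.6-fold, 30 fragments), and Slc25a23, a mitochondrial carrier gene (11.3-fold, 31 fragments).

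The 3 genes of receptor turnover each had 1 summit, and these were of moderate to low strength. ZNRF3 and RNF43 are transmembrane ubiquitin ligases that remove Frizzled receptors from the cell surface. LGR5 is a receptor for R-spondins, which inactivate those ligases. The Znrf3 summit lay inside the gene (gene ID 407821, chromosome 11, 5276329 to 5444847), at 5411871 and 33.0 kb from its nearer end. Its interval spanned 327 bp (5411648 to 5411974), with a fold of 4.50, a −log10 q of 1.75 and 10 fragments (4.80 to 18.4). The Rnf43 summit lay outside the gene (gene ID 207742, chromosome 11, 87663087 to 87735539), at 87592137 and 71.0 kb upstream of its first RefSeq start. It sat inside another gene, Mtmr4, which encodes a myotubularin-related phosphatase, 183 bp from an end of that gene. Its interval of 259 bp (87592008 to 87592266) had a fold of 3.72, a −log10 q of 1.55 and 8 fragments (3.45 to 15.8). The local background solved from fold and p was 0.0812, 1.33 times the genome-wide 0.0608. Backgrounds are in the scaled units of the peak caller, in which 1 fragment counts as 0.378. The Lgr5 summit lay inside the gene (gene ID 14160, chromosome 10, 115450314 to 115587780), at 115587533 and 247 bp from an end. Its interval of 215 bp (115587345 to 115587559) was among the narrowest, since 94.0% of summits lay in one at least as wide. The fold was 3.44 on 7 fragments (2.81 to 14.4), and the −log10 q of 0.30 missed a q of 0.05.

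At the step that controls beta-catenin, Gsk3b and Axin2 had a summit and Ctnnb1 had none. GSK3B is the kinase that phosphorylates beta-catenin for destruction. The Gsk3b summit (gene ID 56637, chromosome 16, 38089001 to 38246084) lay at 38089000, 1 bp upstream of the gene's RefSeq start on the plus strand. Its interval of 739 bp (38088664 to 38089402) had a fold of 5.57, a −log10 q of 3.37 and 13 fragments (6.92 to 22.2), and 9.25% of summits lay in one at least as wide. The interval also held the start of the lncRNA gene BC031361 at 38089260, which is on the minus strand. The 2 transcription units therefore overlap head to head, with both starts inside 1 interval. AXIN2 is a scaffold of the destruction complex and is itself a well-known target gene of the pathway. The Axin2 summit lay outside the gene (gene ID 12006, chromosome 11, 108917828 to 108950783), at 108911205. It was 6623 bp from the gene body and 9144 bp upstream of the RefSeq start in the promoter table. A nearer annotated gene was the lncRNA gene Gm46298, on the minus strand, with a start 246 bp away at 108910959. The Axin2 interval of 306 bp (108911148 to 108911453) had a fold of 3.34 on 8 fragments (3.45 to 15.8) and a −log10 q of 0.30. The local background was 0.203 there, 3.34 times the genome-wide level and the highest of the 9 summits. Rnf43 and Axin2 thus had 8 fragments each, but the summit with the higher background had the lower fold. Ctnnb1 (gene ID 12387, chromosome 9, 120933400 to 120960507), which encodes beta-catenin, had its nearest summit 317.1 kb away at 121277584, where Ulk4 was the nearest gene. That summit had a fold of 3.08 on 6 fragments, the lowest number in the list. A site with fewer fragments would not be listed, so absence of a summit does not show absence of GATA2.

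**Figure D2:**
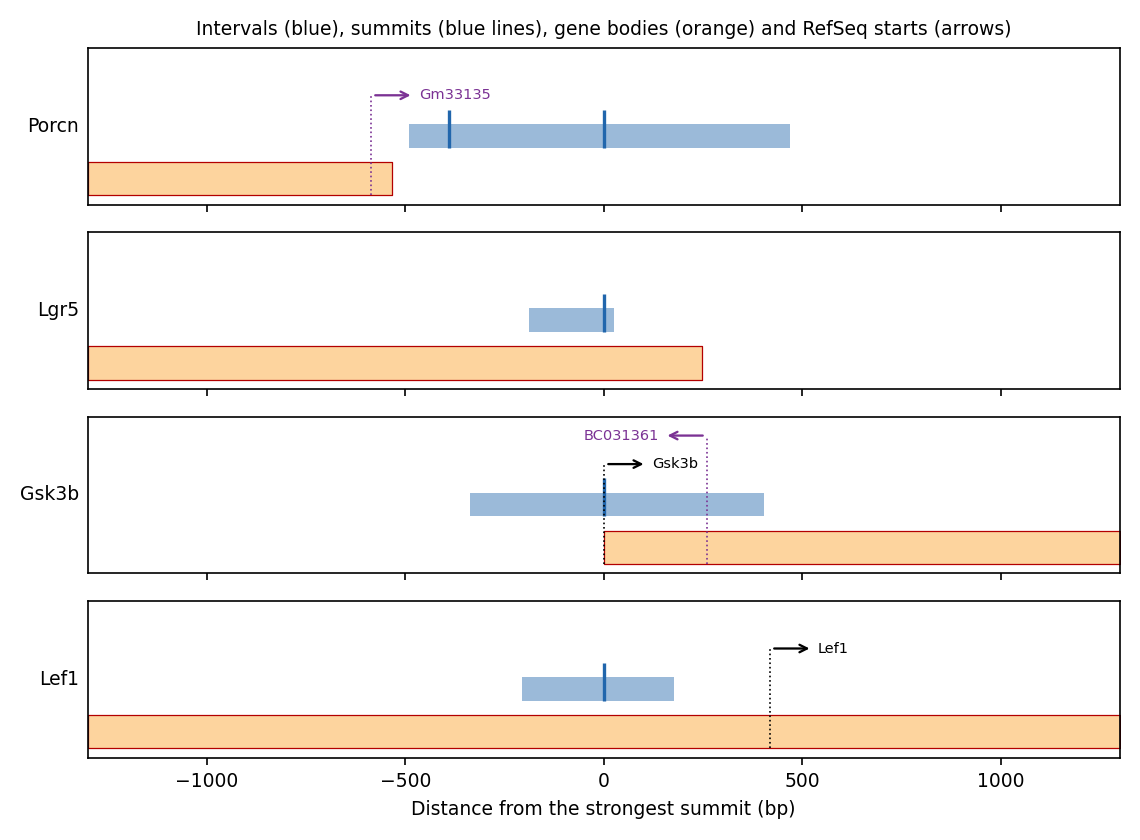
Close view of 4 genes, with the x axis in bp from the strongest summit, intervals and summits in blue, gene bodies in orange, and RefSeq starts as arrows in the direction of transcription (black for the gene itself, purple for a lncRNA gene). The Gsk3b summit lies 1 bp from the gene's start and the interval holds a second, opposite start, while the Porcn interval lies outside the gene and the Lef1 summit lies 419 bp before a start inside the gene. Starts of Porcn and Lgr5 themselves are not drawn.

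The sequences before these starts are shown because 2 of the 9 summits fell in them (RefSeq, GRCm38.p6, 5′ to 3′ on the strand of transcription). The promoter table has no entry for Porcn, Znrf3, Lgr5 or Mtmr4, so summits could not be compared with promoter bases of those genes. The Gsk3b stretch is chr16:38088751-38089000, plus strand, and all 250 bases lie inside the called interval. Its capitals mark the 10 bases that end at the summit. The Gm46298 stretch is chr11:108910960-108911209, minus strand, and its first 62 bases lie inside the Axin2 interval, with the summit at base 5. Its capitals mark 3 copies of AGATAA, a form of the GATA recognition hexamer. These copies lay outside the interval, 102 to 213 bp from the summit as measured to the last printed base of each.
Gsk3b: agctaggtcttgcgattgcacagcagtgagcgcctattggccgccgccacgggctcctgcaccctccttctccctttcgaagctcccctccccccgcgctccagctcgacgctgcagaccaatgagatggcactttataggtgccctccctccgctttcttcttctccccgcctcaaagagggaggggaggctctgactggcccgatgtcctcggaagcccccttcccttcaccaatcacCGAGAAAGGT
Gm46298: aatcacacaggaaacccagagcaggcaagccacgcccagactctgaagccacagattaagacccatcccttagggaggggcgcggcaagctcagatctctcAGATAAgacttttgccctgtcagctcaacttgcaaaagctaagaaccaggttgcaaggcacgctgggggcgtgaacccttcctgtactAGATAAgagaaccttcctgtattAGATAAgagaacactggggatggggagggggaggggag

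Of the 3 TCF/LEF genes, Tcf7l2 had the second highest fold of the 9 summits, Lef1 had a weak summit and Tcf7 had none. These genes encode the DNA-binding partners of beta-catenin. The Tcf7l2 summit lay deep inside the gene (gene ID 21416, chromosome 19, 55741797 to 55933659), at 55825468, 43.6% of the way along it. It was 83.7 kb downstream of the first RefSeq start in the promoter table and 69.9 kb upstream of a later one. Its interval of 401 bp (55825257 to 55825657) had a fold of 8.06, a −log10 q of 8.91 and 20 fragments (12.2 to 30.9), which ranked it 64 of 995. The Lef1 summit lay inside the gene (gene ID 16842, chromosome 3, 131110297 to 131224357), at 131112372. It was 2075 bp downstream of the first RefSeq start and 419 bp upstream of a later one at 131112791. Its interval of 384 bp (131112166 to 131112549) had a fold of 3.44 on 7 fragments (2.81 to 14.4), and its −log10 q of 0.30 missed a q of 0.05. Lgr5 and Lef1 had the same fold and q because both had 7 fragments over the genome-wide background, as did 97 of the 995 summits. Tcf7 (gene ID 21414, chromosome 11, 52246527 to 52283383) had its nearest summit 557.5 kb away, at 51688998 and nearest to 0610009B22Rik (3.37-fold, 7 fragments).

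The fragment numbers show how much evidence each summit rests on. In descending order they were 31 and 20 at Porcn and Tcf7l2, 13 at Gsk3b, 11 at the weaker Porcn summit, 10 at Znrf3, 8 at Rnf43 and Axin2, and 7 at Lgr5 and Lef1. The intervals of neighbours in that order overlapped throughout. The lower bound of the strong Porcn summit (21.1) lay above the upper bounds of its weaker summit (19.7), Znrf3 (18.4), Rnf43 and Axin2 (15.8), and Lgr5 and Lef1 (14.4). It lay below those of Tcf7l2 (30.9) and Gsk3b (22.2). The fragments were solved from fold and p, and the genes were chosen by the fold of their summits. These bounds therefore describe counting error only, and nothing is read from their overlap or lack of it. The median was 10 fragments for the 9 summits and 9 (quartiles 8 and 13) for the whole list. The median fold was 4.50 against 4.15 (quartiles 3.44 and 5.22), and 3 of the 9 reached a fold of 5, as did 27.4% of the list. By rank, Gsk3b stood at 192, the weaker Porcn summit at 281, Znrf3 at 372, Rnf43 at 687, Lgr5 and Lef1 at 727 and Axin2 at 841. The summits of these genes were thus spread over most of the range of the list. The background equalled the genome-wide level at 7 of the 9 summits and at 70.1% of all summits.

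**Figure D3:**
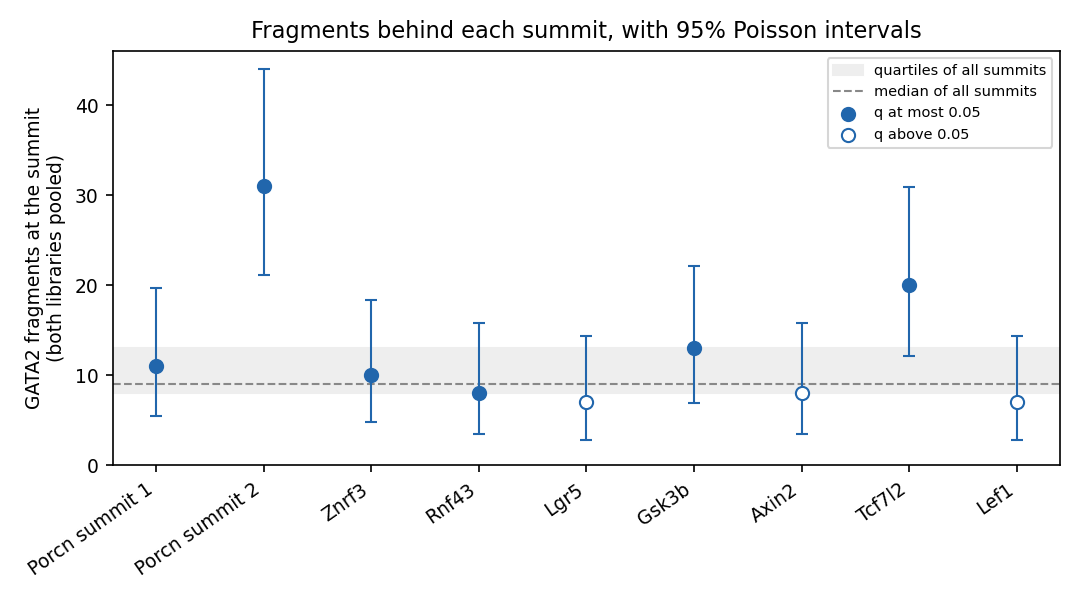
GATA2 fragments at each summit (y axis, number of fragments pooled over both libraries) for the 9 summits in pathway order, with bars for 95% Poisson intervals of the single count, filled circles for a q of at most 0.05, and the median and quartiles of all 995 summits in grey. The stronger Porcn summit (31) and Tcf7l2 (20) lie above the upper quartile of 13, Gsk3b lies on it, and the other 6 lie between 7 and 11.

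**Figure D4:**
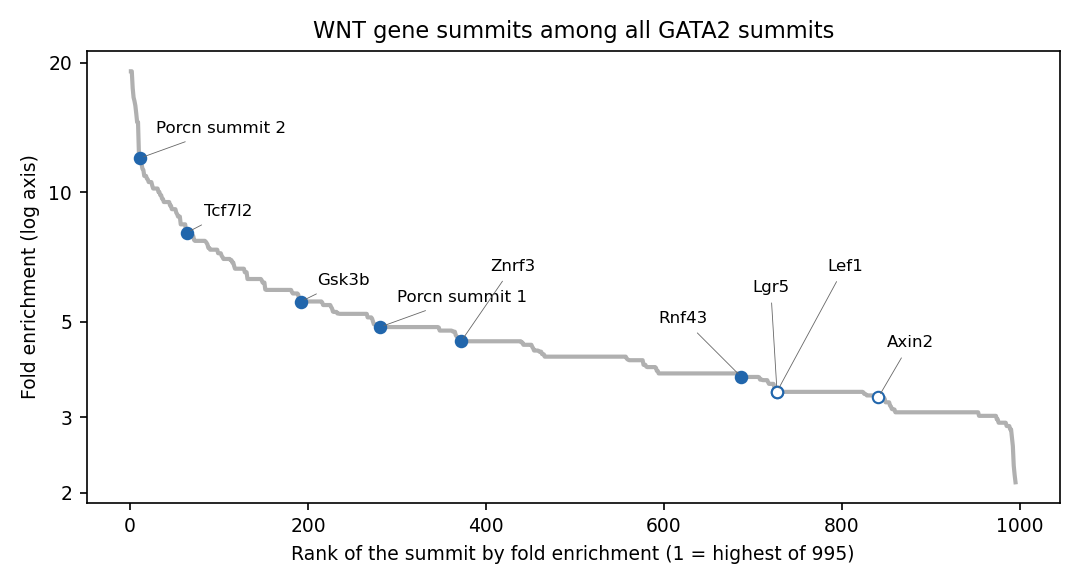
Fold enrichment (y axis, log scale) against rank for all 995 summits (grey line), with the 9 summits of the WNT genes as circles, open where q is above 0.05. They run from rank 11 (12.0-fold) to rank 841 (3.34-fold), and the 3 open circles are Lgr5, Lef1 and Axin2.

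Few summits lay near the limit of 100 kb. The farthest summit inside it was that of Rnf43 at 71.0 kb, followed by that of Axin2 at 6.6 kb, and the other 7 lay inside the gene or within 534 bp of it. Beyond the window the next summit was that of Ctnnb1 at 317.1 kb, followed by those of Porcn at 352.5 kb (6.64-fold, nearest to Otud5) and Axin2 at 359.4 kb (5.93-fold, nearest to Rgs9). Only Porcn had more than 1 summit. Among all genes with a summit in the window, 76.6% had exactly 1. The distance to the next interval ran from 365.4 kb (Porcn) to 14.6 Mb (Znrf3), beside a median of 336 kb (quartiles 68.4 and 1065 kb) for the list. A distance at least as long as that of Porcn was found for 49.0% of all summits. Distances at Tcf7l2, Lgr5 and Gsk3b were 1.24, 1.86 and 2.12 Mb.

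The genes were long, with a median length of 93.3 kb (12.7 kb for Porcn to 192 kb for Tcf7l2) against 17.3 kb for all protein-coding genes. Over all genes the share with a summit was close between length classes, at 14.9% of those shorter than 20 kb, 15.1% of those of 20 to 100 kb and 14.5% of longer ones. All 5 members of at least 100 kb (Znrf3, Lgr5, Gsk3b, Tcf7l2 and Lef1) had a summit, as did Porcn and, of the 4 between 20 and 100 kb, Rnf43 and Axin2. The windows of the 10 genes covered 2.95 Mb and held 3.05 summits per Mb, against 0.506 per Mb over the windows of all protein-coding genes, a difference that the choice of genes built in. Chromosome 11 held 4 of the genes and 83 summits.

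When lncRNA and other annotated genes were counted as neighbours, another gene was nearer to 5 of the 9 summits, against 1 with protein-coding genes only. These were both Porcn summits (Gm33135), the Gsk3b summit (BC031361), the Axin2 summit (Gm46298) and the Rnf43 summit (Mtmr4). A lncRNA gene was the nearest annotated gene at 4 of the 9 summits and at 22.0% of all summits.

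Promoter bases were searched on both strands for GATA hexamers, which are the letters GATA with A or T before and A or G after them. They were also searched for TCF/LEF heptamers, which are CTTTGA followed by T or A. The table holds 300-base windows, 250 before and 50 after a start, for 7 of the 10 genes (14 windows), and none for Porcn, Znrf3 and Lgr5. A GATA hexamer was found in 3 of the 14 windows, against 29.8% of all 32851 windows, and a TCF/LEF heptamer in 0 of 14, against 8.65%. These 3 windows lay before a later start inside Rnf43, Tcf7l2 and Lef1, and none of them held a summit. The single window of the 14 with a summit, that of Gsk3b, had no match. The windows of Ctnnb1 and Tcf7 also had none, and their GC content was 64.3% to 76.3%, against a median of 52.7% for all windows. The absence of a match says only that these letters are not in the window. Bases at the summits of Rnf43, Tcf7l2 and Lef1 lay outside the promoter windows and were not searched for hexamers. The first matches in the 3 windows with a hexamer are printed here with their surroundings (plus strand, capitals mark the hexamers on either strand). The nearest summit of these genes was 107620, 69666 and 43727 bp away. The printed stretches lie at chr11:87699751-87699780, chr19:55895128-55895157 and chr3:131156093-131156122.
Rnf43: ttttttTGATAGagattcAGATAGggaaga
Tcf7l2: ccaactTTATCTaaattcagctagcttcct
Lef1: ataaggTGATAAaatacatggtcaaaggaa

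Outside the 10 genes, 18 of 92 other WNT pathway genes (19.6%) had a summit inside or within 100 kb, beside 14.9% of all protein-coding genes. With a q of at most 0.05 the number was 9 (9.78%, beside 10.2%), and 6 (6.52%, beside 3.82%) were the nearest protein-coding gene to a summit. By role, 5 of 19 ligand genes had a summit, 4 of 15 receptor genes and 4 of 18 genes of cytoplasmic transduction. So did 2 of 12 secreted inhibitor genes, 2 of 12 nuclear cofactor genes and 1 of 8 target genes. With a q of at most 0.05, 1 ligand gene (5.26%) and 1 receptor gene (6.67%) remained, beside 10.2% of all genes. Transduction, secreted inhibitor and nuclear cofactor genes then kept 3, 2 and 2 (16.7% each), and target genes 0. Of 4 other genes of secretion and ligand release (Wls, Notum, Gpc4 and Tmed5) and 6 others of receptor turnover (the Rspo genes, Lgr4 and Lgr6), 0 had one. Notum and Nkd1 were each listed under target genes as well as under another role. Groups of 4 and 6 genes are too small to set apart from the 14.9% of all genes. Porcn, Znrf3, Rnf43 and Lgr5 were themselves chosen by their summits.

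Among the ligand genes, Wnt5b, known for signalling independent of beta-catenin, had a summit inside the gene (6.64-fold, 16 fragments, −log10 q 7.02), and Wnt2b had a pair of weak ones at 1.6 and 6.2 kb (3.44-fold each). Wnt3 and Wnt9b shared 1 summit for which Gosr2 was nearer (3.08-fold), and the Wnt7a summit was nearer to Chchd4. Among the receptor genes, Ryk, encoding a WNT receptor related to tyrosine kinases, had a summit 16.6 kb away (6.64-fold, 16 fragments). Those of Fzd3, Lrp5 and Ror1 were nearer to Extl3, Ppp6r3 and Ube2u, with folds of 3.08 to 3.44. The inhibitor genes Sfrp5 (3 summits, 4.15 to 4.50-fold) and Kremen2 (3.79-fold) had other genes nearer, as did Csnk1e (4.86-fold), Tnks2 (3.08-fold), Apc2 (4 summits, 4.15 to 6.28-fold) and Cdx2 (3.43-fold). Of the nuclear cofactor genes, Ctbp2, encoding a corepressor, had a summit inside the gene (6.86-fold, 17 fragments), and Tle4, encoding a Groucho corepressor, had one 3 bp inside an end (4.15-fold, 9 fragments). Gsk3a, the paralogue of Gsk3b, had a summit 162 bp outside an end. It had 13 fragments, as did the Gsk3b summit, but over a background of 0.406 against 0.0608 in the peak caller's scaled units. Its fold was therefore 4.20 against 5.57, and its −log10 q 0.30 against 3.37.

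**Figure D5:**
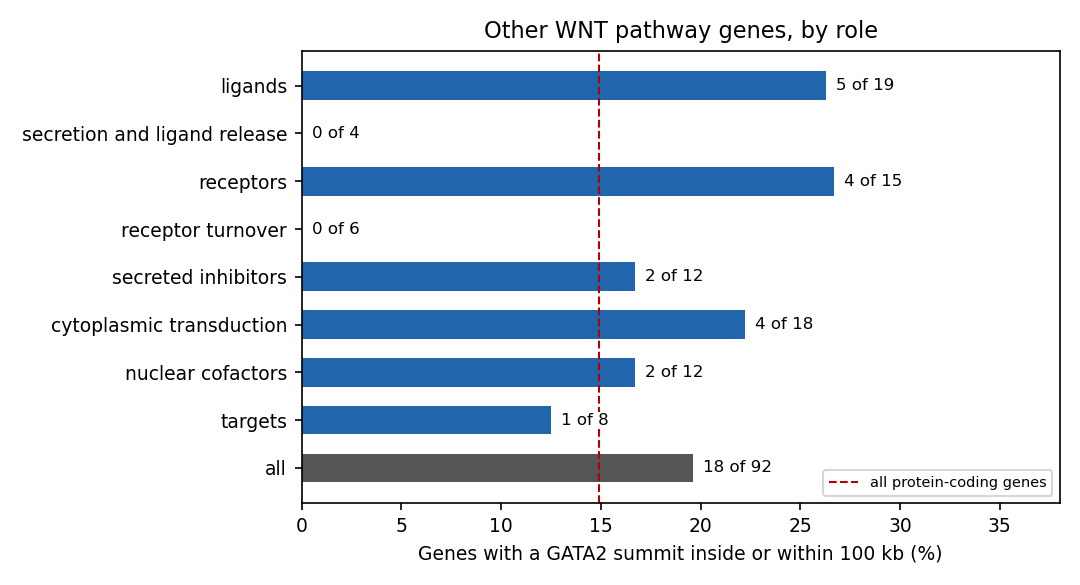
Share of other WNT pathway genes with a GATA2 summit inside or within 100 kb (x axis, percent), by role, with the number of genes beside each bar and the share of all protein-coding genes (14.9%) as a dashed line. Ligands (5 of 19) and receptors (4 of 15) have the highest shares on few genes, and secretion (0 of 4) and receptor turnover (0 of 6) have none. Summits of any q are counted, and with a q of at most 0.05 ligands and receptors keep 1 gene each.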

How the data were processed

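CUT&Tag libraries were made from sorted female germ cells at E13.5, 2 with a GATA2 antibody and 2 inputs without one. The build is GRCm38 (mm10), per the submitters' processing notes, which also list bedtools 2.29.2, MACS2 2.2.6, Picard 2.23.0, SAMtools, Bowtie2 2.3.5.1 and Trimmomatic 0.39. For none of them is a role or parameter stated, and the control behind the peak calls is not given in the sources used. All values came from 1 deposited peak list. "Comb" in its peak names was read as both GATA2 libraries pooled, so no replicate spread can be given.

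The fold that the authors deposited is a ratio of signal to local background, each with 1 added, as MACS2 computes it. The 2 significance columns they deposited are −log10 p, unadjusted, and −log10 q, adjusted, both taken at the summit. A display score that the authors deposited was not used further.

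A summit is 1-based (interval start plus offset). Gene bodies came from the RefSeq table of GRCm38.p6, which gives no exons, and promoter windows and strands from its RefSeq promoter table. Fragment numbers were solved from fold and p together, assuming MACS2's formulas, with whole numbers allowed a deviation of 0.005. All 995 summits were solved with a scale of 0.378 and a deviation of at most 1.1e-04. For 23 summits a second solution existed and the lower background was used, but this touched 0 of the summits described. Exact Poisson intervals (95%) cover counting error only, since PCR copies may remain. Python 3.11.15, pandas 2.3.3, numpy 2.4.6 and scipy 1.17.1 were used.

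The genes and lists were chosen with earlier results of these data known, so counts are descriptions without a test. Alternatives changed the window, the threshold, summits per interval and the assignment to genes. The text names all 10 genes with every summit, any gene nearer to a summit, the next summit beyond the window, the 4 summits next to the strongest one by fold, and every other listed WNT gene with a summit. One further result on a neighbouring gene is not reported here.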

Additional observations from a re-analysis of the deposited data

How the results depend on the processing

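No paired analysis was possible because the list pools the libraries and holds no value per replicate. For the same reason no replicate could be left out. Of the 10 genes, 8 had a summit as reported (9 summits). Windows of 10, 50 and 200 kb gave 7, 7 and 8 genes, beside 4.60%, 9.68% and 23.5% of all protein-coding genes. Taking 1 summit per interval gave 8, beside 14.9%. Counting a summit only for its nearest protein-coding gene gave 7, beside 3.82%. Stricter thresholds, which leave fewer summits in the list, gave lower counts. With a q of at most 0.05, 5 genes and 6 of the 9 summits remained, beside 10.2% of all genes and 67.7% of all summits. With a −log10 q of 5 or more, 2 genes (Porcn and Tcf7l2) and 2 summits remained, beside 3.10%. Over the same alternatives the share of all protein-coding genes with a summit ran from 3.10% to 23.5%. The scale and background behind the fragment numbers were solved once and not varied. Depth limits what could be listed, since the weakest summits rest on 6 fragments.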

Other observations

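The Znrf3 summit was one of the most isolated in the list. Only 3 of the 995 summits lay farther from the next interval than its 14.6 Mb.

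Over the whole list, 196 summits (19.7%) lay in a 300-base RefSeq promoter window, and 234 windows held one. A GATA hexamer was present in 71 of those 234 windows (30.3%), beside 29.8% of all windows, and a TCF/LEF heptamer in 18 (7.69%), beside 8.65%. The windows with a summit had a median GC content of 61.0%, against 52.7% for all windows. No test of these shares was run.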
